A study of Mus musculus and Homo sapiens with 34 samples.

Results

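The genes described here encode 10 secreted proteins of mucosal defence, taken as the rows named Dmbt1, Lcn2, Pigr, Bpifa1, Bpifb1, Lyz1, Lyz2, Ltf, Gpr15lg and Chil1 in 7 tables of read counts. They are 10 genes among 21401 distinct mouse gene identifiers, and in the human tables the upper-case names were read among 27030 identifiers. All 10 were listed in the table of the 2-week experiment, 9 in each of the tables of the 48-hour 3154 experiment and of 1027B, and 4 in the 3311 table. Of the human tables, each listed 3 to 5. Gpr15lg is listed under its older symbol 2610528A11Rik in some tables and was matched by its Ensembl identifier. A gene without a row in a table was not analysed here for that culture.

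RNA sequencing covered 34 libraries in 17 groups of 2 replicates, 22 of them from mouse. The 3154 organoids are mouse lung tumour cultures whose labels include the alleles p53frt, Rosa-FSF-CreERT2 and Hnf4aflox, so a tamoxifen-activated Cre can remove Hnf4a, the gene of the nuclear receptor HNF4α. One 3154 experiment compared 4-hydroxytamoxifen (4OHT, 2 mM per the labels) with ethanol, with RNA taken 2 weeks after the treatment. The other combined 4OHT or ethanol with vehicle or 3 nM MRTX1133, a small-molecule inhibitor, and all 4 of its groups carry the same alleles. For these groups 48 hours is the only time read from the labels, with no dose of 4OHT and no time since it. Below, 48 hours therefore names this experiment, and the 2 experiments are not a time course of deletion. Both 1027B, an organoid culture, and 3311, a cell line, have labels that include p53frt, Rosa-FSF-CreERT2, Foxa1flox and Foxa2flox, in treated and control groups alike. Treatments lasted 48 hours: 10 nM trametinib, 20 nM MRTX1133 or vehicle in 1027B, and 50 nM trametinib or vehicle in 3311. No treatment that would remove Foxa1 or Foxa2 is named for them. Trametinib inhibits the kinase MEK, which activates ERK. H1651 and H358 are human lung adenocarcinoma cell lines. H1651 cells carrying a lentiviral HNF4α construct were compared with and without 1 μg/mL doxycycline for 7 days, and both lines were compared with and without 20 nM trametinib for 48 hours. Deletion below means 4OHT against ethanol in 3154. No culture without Hnf4aflox received 4OHT, so other effects of 4OHT or of Cre cannot be told apart from loss of Hnf4a. Each culture is 1 line, and the labels do not say whether the replicates were separate cultures, so p values measure the spread between these libraries only.

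Airway and gut epithelia protect their surfaces by secreting proteins that bind microbes, withhold iron or carry antibodies into the lumen. Interleukin-17 and NF-κB signalling raise many of these genes during inflammation, and several also mark secretory cell types at rest. HNF4α directs gastrointestinal and liver programmes. In cultures of 1 line, as in any bulk sample, fewer cells of a type and less RNA per cell cannot be told apart.

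Levels are given as CPM, read counts scaled to a common library total with TMM factors, per library where a result turns on them. Tests are edgeR's quasi-likelihood F-tests within 1 table, with Benjamini-Hochberg adjustment over all genes tested there, and a gene was called at an adjusted p under 0.05. Total counts per library ran from 19692517 to 45284286. The biological coefficient of variation, the relative spread between replicates beyond counting error, was 0.0949 to 0.193. Replicates of each group differed by more than sampling noise, with a chi-square per degree of freedom of 5.65 to 83.1, so none was counted as a repeat of another. With 2 libraries against 2 an exact permutation test cannot go below p = 0.333, so no exact test was used. The targeted gene followed its label: Hnf4a stood at 315 and 427 CPM with ethanol and at 53.5 and 68.0 CPM 2 weeks after 4OHT. In the 48-hour vehicle libraries it stood at 221 and 230 CPM with ethanol and at 49.4 and 50.4 CPM with 4OHT. HNF4A in H1651 rose from 41.5 ± 7.89 to 95.6 ± 1.73 CPM with doxycycline (SD, n = 2, adjusted p = 0.00979). Epithelial markers (Epcam, Cdh1, Krt8, Krt18, Krt19) summed to between 3601 and 10911 CPM in every library of every culture.

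On Hnf4a deletion Ltf, Bpifa1, Dmbt1, Lcn2, Bpifb1 and Lyz2 were called higher in at least 1 comparison and Gpr15lg was called lower in all 3. At 2 weeks 5 of the 9 members tested were called, where 9.81% of all 14492 genes tested were called. Of these 4 were higher (4.03% of all genes) and 1 lower (5.78%). In the 48-hour experiment 3 of 8 were called with vehicle, 2 higher (15.3% of all genes) and 1 lower (15.7%), beside 31% of all genes in either direction. With MRTX1133 4 of 8 were called, 3 higher (13.2%) and 1 lower (14.5%), beside 27.7%. The vehicle share of the members is near that of all genes and is not a result about them. The median log2 change of the tested members was 1.66 at 2 weeks, 0.73 at 48 hours with vehicle and 0.76 at 48 hours with MRTX1133, beside 0.02, 0.01 and -0.01 over all genes tested in the same fits. A gene passes the filter on low counts if it is high in 1 group, so these counts and medians describe the members and are not evidence for them as a group. The 48-hour deletion comparisons share no library with the 2-week one. With inhibitors, 0 of 8 members were called for MRTX1133 in 3154 with Hnf4a present (0.349% of all genes, 0.317% higher and 0.0323% lower; 2 of 8 at an unadjusted p under 0.05 and 1 of 9 by DESeq2) and 2 of 8 after deletion (4.64%), 1 higher (2.1%) and 1 lower (2.54%). In 1027B, Dmbt1 was called lower with each inhibitor and the other 8 tested members were not called. With the replicate number as a block, 3 of the 9 were called lower with MRTX1133, Dmbt1, Bpifb1 and Lyz1 (adjusted p = 0.0488 for Bpifb1 and 0.0148 for Lyz1). Trametinib called 26.7% of all genes there (13.5% higher, 13.2% lower) and MRTX1133 6.27% (3.01% higher, 3.26% lower), and both share their vehicle libraries. In 3311, 1 of 2 was called, Dmbt1, lower (39% of all genes, 19.4% higher and 19.6% lower). In human cells 0 of 2 were called with doxycycline (1.42%, 1.04% higher and 0.386% lower; 1 of 2 at an unadjusted p under 0.05 and 0 of 3 by DESeq2). With trametinib 0 of 2 were called in H1651 (0% of all genes by edgeR and 47 genes by DESeq2, with 0 of 2 members at an unadjusted p under 0.05 and 0 of 5 by DESeq2). With the replicate number as a block, LCN2 was called higher with doxycycline and DMBT1 lower with trametinib in H1651. The labels do not tie those numbers to a shared origin. In H358 1 of 1 was called with trametinib, LCN2, higher (46.8%, 23.5% higher and 23.2% lower).

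**Figure D1:**
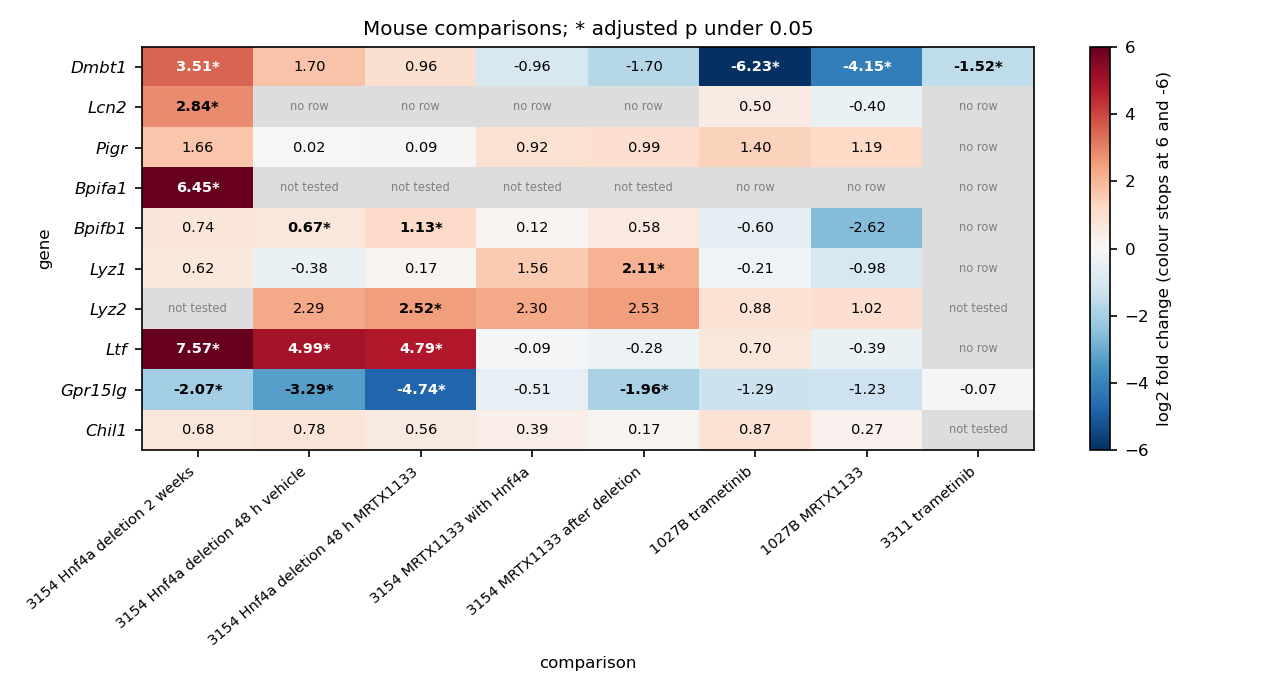
Log2 fold change of each member (rows) in 8 mouse comparisons (columns), with red for higher and blue for lower in the deleted or inhibitor-treated group. An asterisk marks an adjusted p under 0.05; the largest rises are Ltf (7.57) and Bpifa1 (6.45) at 2 weeks and the largest fall is Dmbt1 with trametinib in 1027B (-6.23).

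Gpr15lg encodes a small secreted ligand of GPR15, a receptor of T cells. The gene lies on chromosome 14 at 37102140 to 37114022 on the minus strand (GRCm38, GENCODE M21), and its exons overlap no other annotated gene. Per kilobase of exon it was the most abundant listed member in 3311 and in 3154 organoids that keep Hnf4a. After deletion at 48 hours it stood at 28.2 ± 6.94 CPM per kilobase with vehicle, beside Bpifb1 at 26.5 ± 4.76, which does not differ beyond the spread. With MRTX1133 it stood at 7.25 ± 0.897, below Lyz1 at 54.4 ± 22.7 and Bpifb1 at 39.6 ± 1.47 (SD, n = 2). Its vehicle level on that scale was 1007 ± 66.0 CPM in 3311, 276 ± 2.33 in the 48-hour 3154 experiment, 180 ± 17.2 in the 2-week experiment and 1.37 ± 0.283 in 1027B (SD, n = 2). These levels come from tables normalized separately, and their ranges over libraries do not overlap. Vehicle libraries of 1027B held 446 and 471 CPM of Hnf4a, more than either 3154 experiment, beside the lowest Gpr15lg of the mouse cultures.

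Removing Hnf4a lowered Gpr15lg in both experiments. At 2 weeks the ethanol libraries held 139 and 159 CPM and the 4OHT libraries 29.9 and 40.9 CPM. At 48 hours with vehicle the values were 230 and 227 CPM with ethanol and 27.4 and 19.3 CPM with 4OHT. With MRTX1133 they were 176 and 145 CPM with ethanol and 5.48 and 6.53 CPM with 4OHT. Every deleted library lay far below every matched ethanol library. The log2 changes were -2.07 ± 0.19 at 2 weeks (SE, adjusted p = 0.00771), -3.29 ± 0.20 at 48 hours with vehicle (adjusted p = 0.000141) and -4.74 ± 0.22 with MRTX1133 (adjusted p = 7.42e-05). These are falls to 1 part in 4.21, 9.77 and 26.7.

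MRTX1133 moved Gpr15lg less. With Hnf4a present its log2 change was -0.51 ± 0.19 (adjusted p = 0.339), although both treated libraries were below both vehicle libraries. After deletion it fell by 1.96 on the log2 scale (SE 0.20, adjusted p = 0.0131), from 27.4 and 19.3 to 5.48 and 6.53 CPM. That call was lost without the 4OHT vehicle replicate 1, the 4OHT MRTX1133 replicate 1 or the 4OHT MRTX1133 replicate 2 (adjusted p = 0.157, 0.175 and 0.0554). The difference between these changes, the interaction, was -1.45 and was not called by edgeR (unadjusted p = 0.000726, adjusted p = 0.541). DESeq2 gave -1.43 with an adjusted p of 0.00908. Over all genes edgeR called 0 interactions, with 1150 genes at an unadjusted p under 0.05. Hnf4a itself fell further with MRTX1133 after deletion, from 49.4 and 50.4 to 25.3 and 29.8 CPM (adjusted p = 0.0185), a call lost without any 1 of the 4 libraries (0.0812 to 0.234). Its part in the fall of Gpr15lg was not tested.

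In 3311 trametinib left Gpr15lg at 576 and 1014 CPM, on either side of the vehicle values of 795 and 872 CPM, with a log2 change of -0.07 ± 0.27 (adjusted p = 0.858). In 1027B the counts were small: 20 and 24 with vehicle, 5 and 15 with trametinib, 9 and 13 with MRTX1133. Both inhibitors gave lower CPM in all their libraries without a call (log2 changes of -1.29 and -1.23, adjusted p = 0.171 and 0.296). By Pearson r over the 22 mouse libraries, on log2 CPM centred within each table, the genes most like Gpr15lg among 12598 tested in all 4 mouse tables were Ndrg1 (0.98), Ndufv3 (0.97) and Cdc42ep2 (0.97). Libraries of 1 group share their treatment, so r is a description only.

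**Figure D2:**
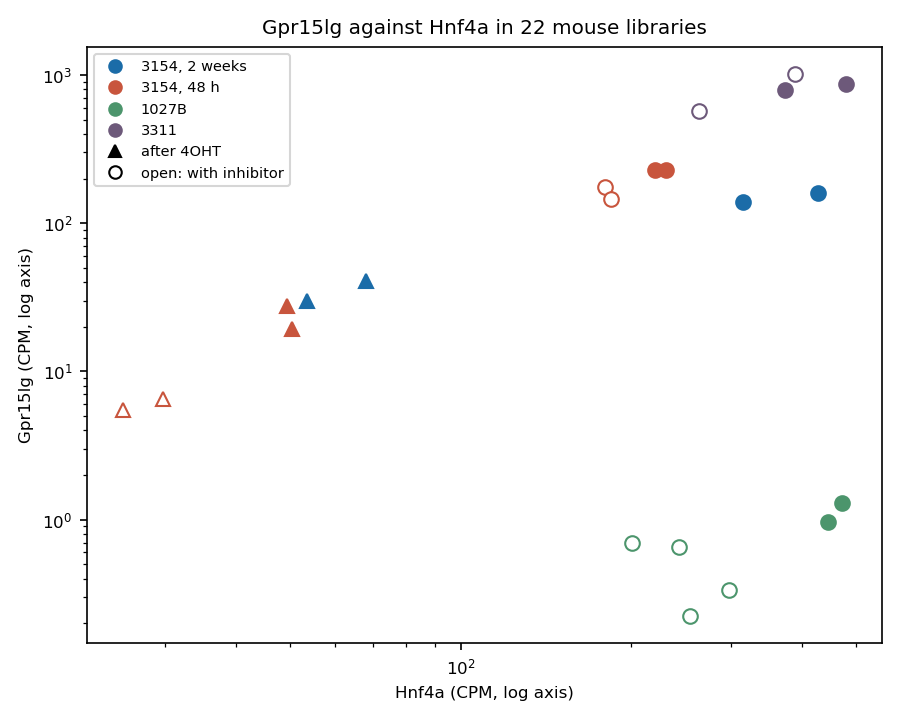
Gpr15lg (vertical, CPM) against Hnf4a (horizontal, CPM), both on log axes, in 22 mouse libraries; triangles are 3154 libraries after 4OHT and open symbols carry an inhibitor. The 6 libraries of 1027B lie apart at 0.223 to 1.30 CPM of Gpr15lg despite 200 to 471 CPM of Hnf4a.

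Ltf and Bpifa1 rose most at 2 weeks and Gpr15lg fell in all 3 deletion comparisons, so the sequence before their start sites is shown. The stretches are the 250 bases before the RefSeq start (GRCm38.p6), read on the strand of each gene, and capitals mark a motif match found by a script. Their places are chr14:37110102-37110351 on the minus strand for Gpr15lg, chr9:111019042-111019291 on the plus strand for Ltf and chr2:154142630-154142879 on the plus strand for Bpifa1. The Gpr15lg and Ltf starts used by RefSeq lie inside their GENCODE genes. All of the Gpr15lg stretch and the end of the Ltf stretch are therefore inside the annotated gene.
Gpr15lg: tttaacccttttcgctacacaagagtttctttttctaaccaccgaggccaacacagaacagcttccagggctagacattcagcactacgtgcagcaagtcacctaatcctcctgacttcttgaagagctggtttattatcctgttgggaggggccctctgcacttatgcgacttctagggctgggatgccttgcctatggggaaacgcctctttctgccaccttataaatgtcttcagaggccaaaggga
Ltf: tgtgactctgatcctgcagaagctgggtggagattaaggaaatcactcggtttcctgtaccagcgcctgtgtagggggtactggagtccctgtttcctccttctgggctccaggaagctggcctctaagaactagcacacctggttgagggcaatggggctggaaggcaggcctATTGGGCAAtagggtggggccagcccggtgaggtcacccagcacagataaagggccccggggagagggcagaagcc
Bpifa1: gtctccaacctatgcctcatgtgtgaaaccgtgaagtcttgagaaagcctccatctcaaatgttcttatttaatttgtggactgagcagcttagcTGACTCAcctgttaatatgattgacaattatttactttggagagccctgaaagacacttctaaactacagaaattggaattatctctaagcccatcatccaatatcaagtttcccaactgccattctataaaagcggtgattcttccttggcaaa
Capitals in Ltf are ATTGGGCAA, at 76 to 68 bases before the start, which is the C/EBP form TTGCNNAAT read on the other strand. Capitals in Bpifa1 are TGACTCA, 155 to 149 bases before the start, a match to the AP-1 motif TGANTCA on both strands. Windows of 300 bases, 250 before to 50 after the start, were searched on both strands for 9 of the 10 members, with none for Dmbt1. The motifs were NF-κB GGGNNTTTC, C/EBP TTGCNNCAA and TTGCNNAAT, HNF4 CAAAGTCCA, HNF1 GTTAATNAT, AP-1 TGANTCA and ETS ACTTCCGG. These were held by 4.36%, 2.08%, 2.4%, 0.475%, 0.801%, 7.81% and 3.89% of 32851 RefSeq promoter windows. The matches in Ltf and Bpifa1 were the only ones in the members' windows, and they describe letters in these windows only.

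Ltf encodes lactotransferrin, which binds iron and withholds it from bacteria (chromosome 9, 111019271 to 111042767, plus strand). It was almost absent from intact 3154 organoids and rose on deletion in all 3 comparisons. The 2-week counts were 2 and 0 with ethanol and 248 and 211 with 4OHT. At 48 hours they were 1 and 1 against 26 and 45 with vehicle, and 0 and 2 against 20 and 46 with MRTX1133. No ethanol library reached 3 counts and no deleted library fell below 20. The depth-scaled ratio of pooled counts was 211 at 2 weeks (95% exact interval 58.1 to 1750) and 34.7 at 48 hours with vehicle (9.25 to 292). With MRTX1133 it was 31.4 (8.36 to 265). These intervals cover counting error only. The fitted log2 changes, which depend on the prior count at such low levels, were 7.57, 4.99 and 4.79 (adjusted p = 0.00614, 0.00467 and 0.0061).

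MRTX1133 gave no call for Ltf with Hnf4a (adjusted p = 0.993) or after deletion (26 and 45 against 20 and 46 counts, adjusted p = 0.8). In 1027B the counts were 3 and 10 with vehicle, 6 and 18 with trametinib and 7 and 5 with MRTX1133, in overlapping ranges. Lrp1, a receptor that takes up lactotransferrin, fell on deletion at 48 hours from 21.9 ± 10.2 to 8.06 ± 1.74 CPM with vehicle (SD, n = 2, adjusted p = 0.0246).

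Lcn2 encodes lipocalin 2, which binds bacterial siderophores and so blocks iron uptake (chromosome 2, 32384633 to 32388252, minus strand). Its counts at 2 weeks were 3 and 2 with ethanol and 15 and 25 with 4OHT. The pooled ratio was 7.36 (2.91 to 23.9), and the log2 change was 2.84 ± 0.64 (adjusted p = 0.0495). The call sits at the threshold. It was lost without the count filter (adjusted p = 0.0518), with DESeq2 (0.0866) and without any 1 of the 4 libraries (0.0958 to 0.234). In 1027B the counts were 11 and 10 with vehicle, 33 and 1 with trametinib, and 18 and 2 with MRTX1133, so the inhibitor libraries spread on both sides of vehicle.

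Human LCN2 was detected in both lines. In H1651 with the HNF4α construct it stood at 9.03 and 9.96 CPM without doxycycline and 15.7 and 11.2 CPM with it (log2 change 0.50 ± 0.18, adjusted p = 0.306). With trametinib in H1651 the values were 5.19 and 1.71 CPM with vehicle and 5.62 and 1.29 CPM with drug (log2 change -0.01, adjusted p = 0.999). In H358 the counts rose from 8 and 7 to 32 and 12, or 0.207 and 0.209 to 0.688 and 0.471 CPM (log2 change 1.51 ± 0.43, adjusted p = 0.02). That call was lost with DESeq2 (adjusted p = 0.201) and without either vehicle library or trametinib replicate 1 (0.116, 0.0951 and 0.234). HNF4A had 0 counts in all 4 H358 libraries.

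**Figure D3:**
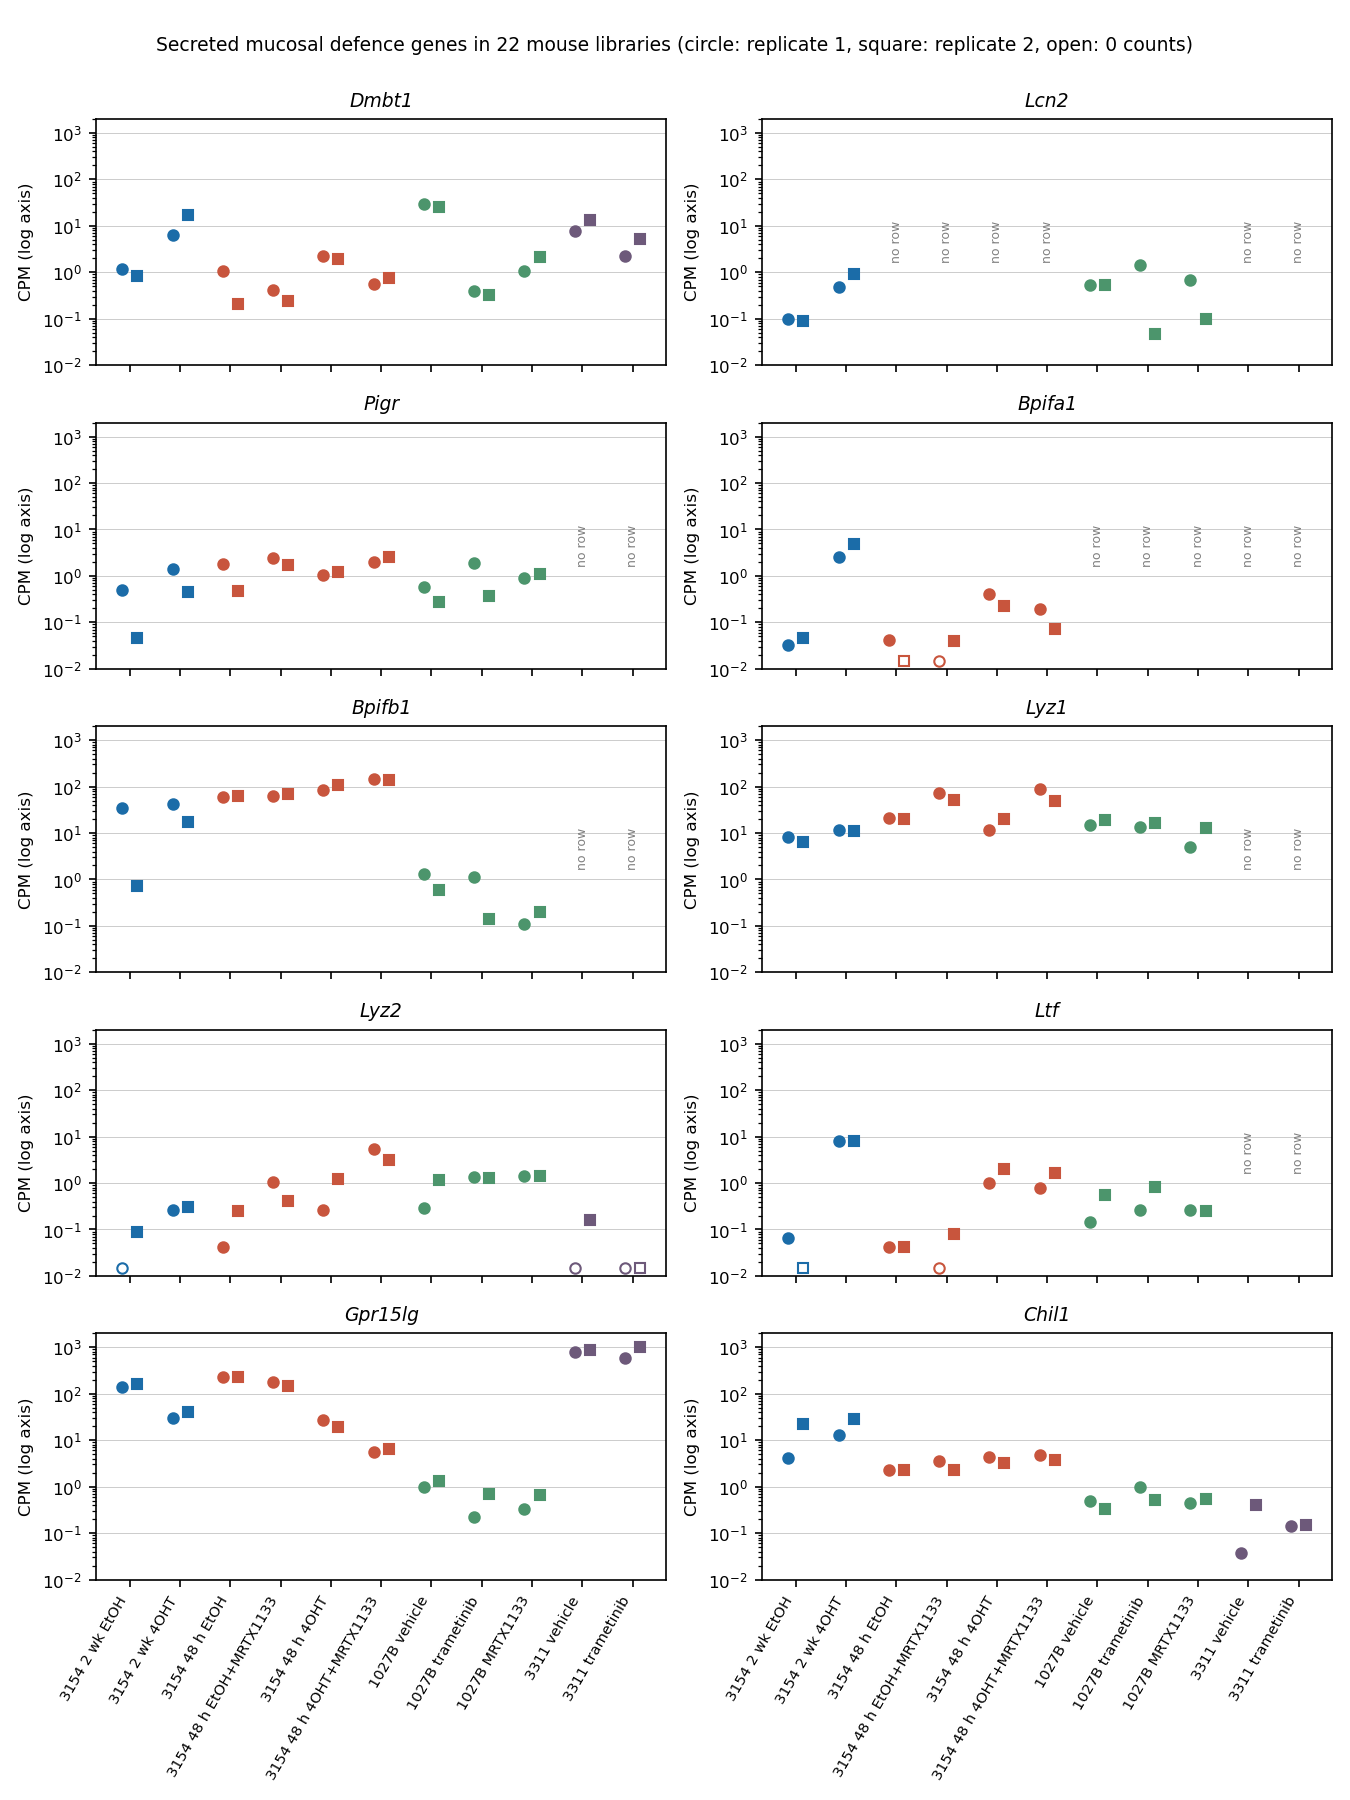
CPM (log axis) of each member in each of 22 mouse libraries, by group along the horizontal axis; circles are replicate 1, squares replicate 2, open symbols 0 counts drawn at the bottom. Gpr15lg spans 0.223 to 1014 CPM, while Ltf and Bpifa1 are near 0 in 3154 organoids that keep Hnf4a.

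Bpifa1 and Bpifb1 are neighbours on the plus strand of chromosome 2 (154142880 to 154149219 and 154190818 to 154220369) and encode secreted proteins of the bactericidal/permeability-increasing fold family, made by upper-airway epithelium. Whether their answers to deletion differ in size was not tested. Bpifa1 rose at 2 weeks from 1 and 1 to 77 and 132 counts, a pooled ratio of 96.2 (26.3 to 800.0) with an adjusted p of 0.0102. At 48 hours it had 1 and 0 counts with ethanol and 11 and 5 with 4OHT in vehicle, and 0 and 1 against 5 and 2 with MRTX1133, and was below the count filter. The 48-hour deleted libraries lay above the ethanol ones in both arms, without a test.

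Bpifb1 was already expressed in 3154 organoids. At 48 hours with vehicle it rose from 58.6 and 61.7 to 83.8 and 108 CPM (log2 change 0.67 ± 0.15, adjusted p = 0.0131). With MRTX1133 it rose from 61.3 and 69.6 to 147 and 140 CPM (log2 change 1.13 ± 0.15, adjusted p = 0.00173). The vehicle call was lost when only those 2 groups were fitted (adjusted p = 0.0534) and without the 4OHT vehicle replicate 2 (0.135). At 2 weeks the ethanol libraries stood at 34.5 CPM in replicate 1 and 0.719 CPM in replicate 2, beside 41.7 and 17.7 CPM after 4OHT. The spread within ethanol was wider than the difference between the groups. The log2 change was 0.74 ± 1.29 (adjusted p = 0.734), and it was 5.35 without ethanol replicate 1 (adjusted p = 0.00044).

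MRTX1133 after deletion left both Bpifb1 libraries higher, 83.8 and 108 against 147 and 140 CPM, without a call (log2 change 0.58, adjusted p = 0.0743). DESeq2 and the fit of those 2 groups alone called it (adjusted p = 0.0203 and 0.00868). With Hnf4a present the log2 change was 0.12 (adjusted p = 0.826). In 1027B it had 27 and 11 counts with vehicle, 25 and 3 with trametinib and 3 and 4 with MRTX1133. MRTX1133 gave a log2 change of -2.62 ± 1.01 (adjusted p = 0.184), and with the replicate number as a block, -2.64 (adjusted p = 0.0488). BPIFB1 in the human lines had 2 to 24 counts per library and was not tested, and BPIFA1 had 0 counts in all 4 H358 libraries, which allows up to 0.118 CPM in the shallowest. Bpifb5, a further family member, rose on deletion at 48 hours, from 0.084 ± 0.0593 to 0.432 ± 0.0208 CPM with vehicle (adjusted p = 0.0162) and from 0.314 ± 0.0109 to 0.84 ± 0.0169 CPM with MRTX1133 (adjusted p = 0.0298; SD, n = 2).

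Lyz1 and Lyz2 encode lysozymes, which cut the peptidoglycan of bacterial walls. Lyz1 is known from Paneth cells of the gut, and Lyz2 from macrophages and alveolar type 2 cells. They lie side by side on the minus strand of chromosome 10 (117287797 to 117292868 and 117277331 to 117282321). Their coding sequences of 444 bases differ at 22 positions and are 95% identical, so reads can be shared between them. Coding positions 43 to 132 from the start codon (GENCODE M21) are shown because 13 of the differences lie in these 90 bases; capitals mark them.
Lyz1: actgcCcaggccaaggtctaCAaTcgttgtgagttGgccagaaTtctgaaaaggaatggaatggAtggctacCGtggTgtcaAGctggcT
Lyz2: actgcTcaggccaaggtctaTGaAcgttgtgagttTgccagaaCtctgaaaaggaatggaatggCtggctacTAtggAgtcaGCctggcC
Of the stretches of 31 bases in the Lyz1 transcript 34.2% also occur in Lyz2, but of stretches of 150 bases, the length of 1 read, 0% do. The authors' handling of reads that match both genes is not given in the sources used here, so small counts of Lyz2 beside many of Lyz1 are uncertain. The 100 bases before the 2 RefSeq starts (chr10:117292869-117292968 and chr10:117282273-117282372, GRCm38.p6, minus strand) hold 92 identical bases, with the 8 differing bases in capitals. Part of the Lyz2 stretch lies inside its GENCODE gene, and none of the Lyz1 stretch does.
Lyz1: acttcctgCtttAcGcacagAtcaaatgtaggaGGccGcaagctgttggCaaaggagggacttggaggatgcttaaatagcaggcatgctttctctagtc
Lyz2: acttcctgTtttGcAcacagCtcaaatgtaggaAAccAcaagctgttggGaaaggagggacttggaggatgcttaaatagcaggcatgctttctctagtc

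Lyz1 rose with MRTX1133 in 3154 after deletion. The libraries held 11.6 and 20.4 CPM with 4OHT alone and 89.0 and 48.5 CPM with MRTX1133 (log2 change 2.11 ± 0.35, adjusted p = 0.025). With Hnf4a present the values were 21 and 20.4 CPM with vehicle and 71.2 and 50.9 CPM with MRTX1133 (log2 change 1.56 ± 0.35, adjusted p = 0.134). Treated libraries were above vehicle libraries in both arms. Only the first was called by edgeR, and that call was lost without any 1 of its 4 libraries (adjusted p = 0.0554 to 0.239). DESeq2 also called the second (adjusted p = 0.00118), and the difference between the arms was not called. The 5 alveolar type 2 markers summed to 8065 and 9236 CPM with 4OHT alone and to 16947 and 12754 CPM with MRTX1133, with 1 called higher and 1 lower. With Hnf4a present the sums were 6681 and 8857 CPM with vehicle and 10954 and 13749 CPM with MRTX1133, with 0 of 5 called by edgeR. The 3 club markers summed to 427 and 637 CPM with 4OHT alone and to 949.9 and 965 CPM with MRTX1133, with 1 called higher, Cyp2f2 (adjusted p = 0.0263). With Hnf4a present those sums were 35.3 and 70.1 CPM with vehicle and 145 and 196 CPM with MRTX1133, with 0 of 3 called by edgeR (adjusted p = 0.0918 to 0.807). The part of both marker sets in the changes of Lyz1 and Lyz2 was not tested. Deletion gave Lyz1 no call at 2 weeks (8.41 and 6.38 against 11.8 and 11.1 CPM, adjusted p = 0.145) or at 48 hours (log2 change -0.38 with vehicle, adjusted p = 0.443, and 0.17 with MRTX1133, adjusted p = 0.744).

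In 1027B the dose of MRTX1133 was 20 nM rather than 3 nM. Lyz1 stood at 15.1 and 19.3 CPM with vehicle and 5.01 and 12.6 CPM with MRTX1133 (log2 change -0.98 ± 0.40, adjusted p = 0.207). With the replicate number as a block it was -1.05 (adjusted p = 0.0148). Trametinib left it at 13.2 and 16.6 CPM (adjusted p = 0.729).

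Lyz2 was far rarer. Its 48-hour counts were 1 and 6 with ethanol, 28 and 10 with ethanol and MRTX1133, 7 and 28 with 4OHT, and 136 and 90 with both. The libraries with both treatments stood above all others. With MRTX1133, deletion raised it by 2.52 ± 0.67 on the log2 scale (adjusted p = 0.0274), a call lost without any 1 of the 4 libraries (0.0517 to 0.15). The change with deletion in vehicle (2.29, adjusted p = 0.126) and with MRTX1133 after deletion (2.53, adjusted p = 0.0801) was not called, and DESeq2 called both (0.0418 and 0.012). The share of Lyz2 in the counts of both lysozymes was 0.2% and 1.22% with ethanol, 1.48% and 0.783% with ethanol and MRTX1133, 2.24% and 5.79% with 4OHT, and 5.68% and 6.18% with both. The last 2 groups overlap. In 1027B it was 1.89% and 5.57% with vehicle, 9.2% and 7.05% with trametinib, and 22% and 10.3% with MRTX1133. In 1027B Lyz2 had 6 and 21 counts with vehicle, 30 and 27 with trametinib, and 38 and 29 with MRTX1133, without a call (adjusted p = 0.309 and 0.357). At 2 weeks it had 0 and 2 counts with ethanol and 8 and 8 with 4OHT and was not tested. LYZ, the human counterpart and no member by name, rose in H358 with trametinib from 2 and 4 to 21 and 8 counts (log2 change 2.20 ± 0.57, adjusted p = 0.0141), a call lost with DESeq2 (0.156) and without vehicle replicate 1 (0.149).

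**Figure D4:**
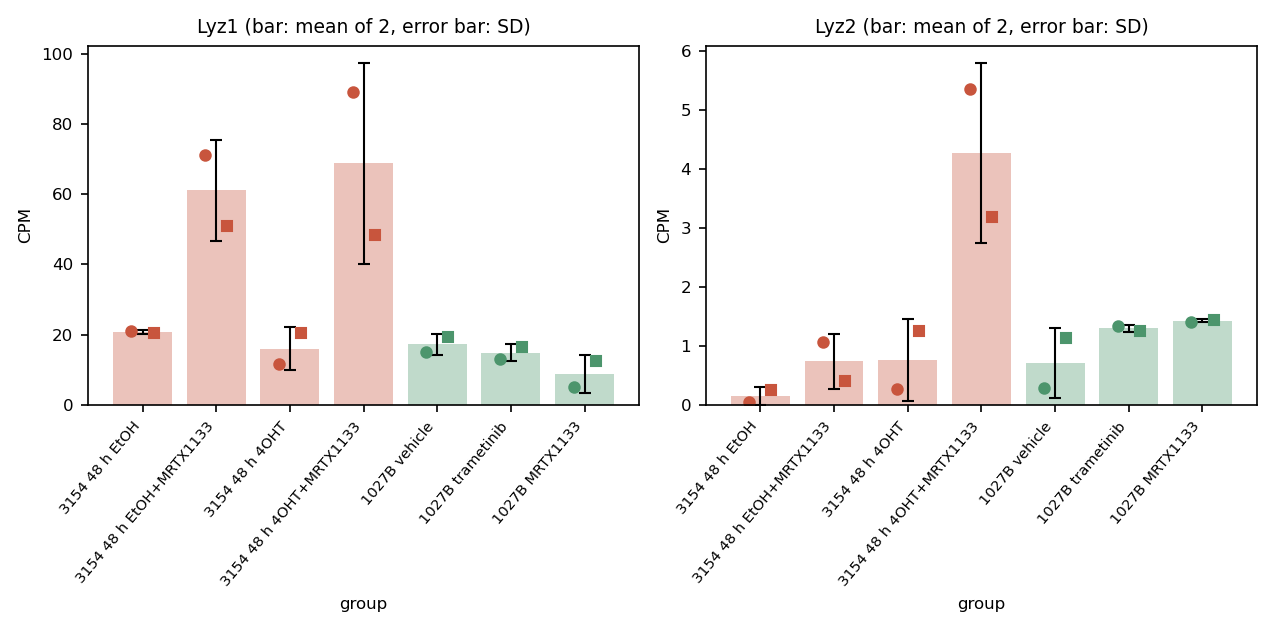
CPM of Lyz1 and Lyz2 in the 4 groups of the 48-hour 3154 experiment and the 3 groups of 1027B; bars are means of 2 libraries, error bars SD, and points single libraries. MRTX1133 libraries of 3154 lie between 48.5 and 89.0 CPM for Lyz1, above the other 3154 libraries, while those of 1027B lie below their vehicle.

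Dmbt1 encodes a large secreted scavenger receptor glycoprotein that binds bacteria and surfactant protein D (chromosome 7, 131032053 to 131121630, plus strand). It was the member that answered the inhibitors most in 1027B. Vehicle libraries held 29.8 and 25.7 CPM, trametinib libraries 0.401 and 0.326 CPM, and MRTX1133 libraries 1.08 and 2.09 CPM. Neither treated group came near vehicle. The log2 change was -6.23 ± 0.38 with trametinib (adjusted p = 0.000469) and -4.15 ± 0.31 with MRTX1133 (adjusted p = 0.00365), with a depth-scaled ratio of pooled counts of 76.4 for vehicle over trametinib (46.8 to 134). Between 20 nM MRTX1133 and 10 nM trametinib the difference was 2.07 (adjusted p = 0.12), where edgeR called 0% of all genes. It was 2.06 with an adjusted p of 0.0205 with the replicate number as a block, and DESeq2 called it as well (0.00203). Hnf4a was also lower, at 254 and 200.4 CPM with trametinib and 298 and 242 CPM with MRTX1133 against 446 and 471 CPM with vehicle. Both changes were called (log2 changes -1.01 and -0.76), and the MRTX1133 call was lost in 4 of 10 alternatives. The 3 goblet and serous markers listed summed to 1166 and 1359 CPM with vehicle, 611 and 543 CPM with trametinib and 378 and 671 CPM with MRTX1133, with 2 and 1 called lower. Among them the mucin gene Muc5ac fell with trametinib from 653 ± 137 to 203 ± 12.8 CPM (SD, n = 2, adjusted p = 0.0186) and also with MRTX1133 (adjusted p = 0.0374). Alveolar type 2 markers summed to 6841 and 10796 CPM with vehicle, 2640.0 and 3182 CPM with trametinib and 3389 and 5027 CPM with MRTX1133. The single markers went both ways, with 2 of 5 called higher and 2 lower with trametinib and 1 higher and 1 lower with MRTX1133. Sftpc rose with each inhibitor (adjusted p = 0.00507 and 0.0454) and Lamp3 fell (0.000379 and 0.00222). The part of these in the fall of Dmbt1 was not tested.

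Trametinib also lowered Dmbt1 in 3311, from 7.80 and 13.7 to 2.22 and 5.29 CPM (log2 change -1.52 ± 0.46, adjusted p = 0.0366). That call was lost without vehicle replicate 2 (adjusted p = 0.146) or trametinib replicate 1 (0.0738). Sums of 4 alveolar type 2 markers were 4713 and 5387 CPM with vehicle and 799.9 and 871 CPM with trametinib, with 1 of 3 tested called lower. Goblet and serous markers summed to 102 and 92.5 CPM with vehicle and to 13.9 and 14.6 CPM with trametinib, with 3 of 3 called lower. Their part in the fall of Dmbt1 was not tested. In H1651, DMBT1 differed more between replicate numbers than between treatments, with 36.1 and 7.28 CPM with vehicle and 17.6 and 2.78 CPM with trametinib. Within each number the trametinib library was lower, by 1.03 and 1.39 on the log2 scale, while the groups overlap (log2 change -1.09 ± 1.04, adjusted p = 0.999). With the replicate number as a block DMBT1 was called lower, but the labels give no shared origin for the numbers. Doxycycline left DMBT1 at 58.5 and 29.4 CPM beside 56.8 and 34.4 CPM (log2 change -0.05 ± 0.33, adjusted p = 0.974). DMBT1 had 0 counts in all 4 H358 libraries, which allows up to 0.118 CPM in the shallowest.

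**Figure D5:**
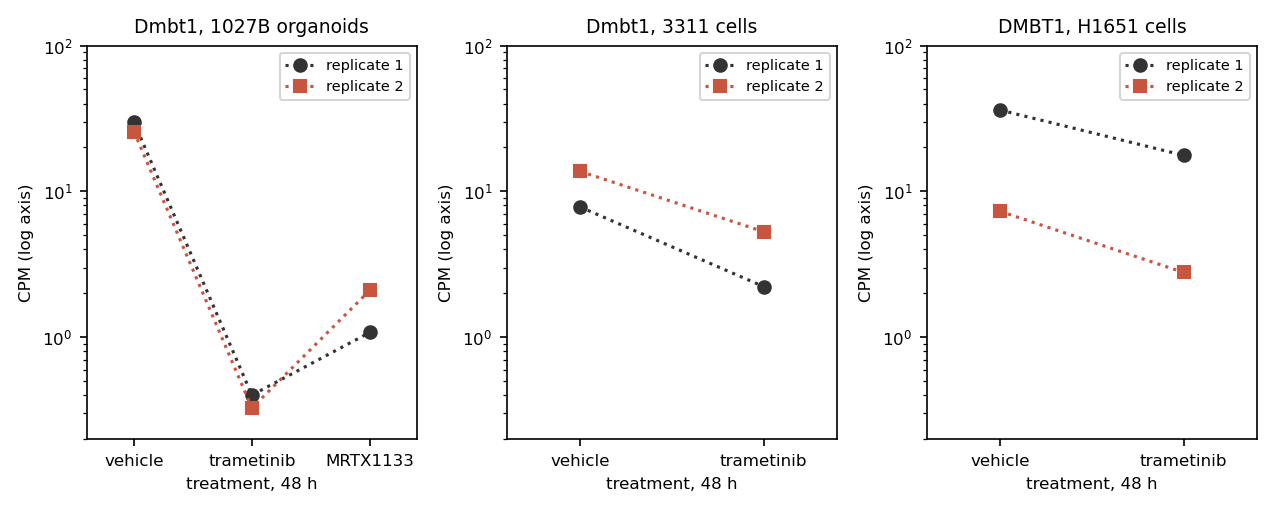
Dmbt1 or DMBT1 (CPM, log axis) with vehicle and inhibitor in 1027B, 3311 and H1651. Dotted lines join libraries of the same replicate number, for which the labels give no shared origin. In 1027B trametinib libraries lie at 0.401 and 0.326 CPM, far below vehicle at 29.8 and 25.7 CPM.

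On Hnf4a deletion Dmbt1 went the other way. At 2 weeks it rose from 1.19 and 0.853 to 6.37 and 17.2 CPM (log2 change 3.51 ± 0.56, adjusted p = 0.0216). At 48 hours the values were 1.09 and 0.21 CPM with ethanol and 2.28 and 1.96 CPM with 4OHT (log2 change 1.70, adjusted p = 0.054). The size rests on single libraries: without ethanol vehicle replicate 1 the change was 3.30 (adjusted p = 0.00356), and without ethanol vehicle replicate 2 it was 0.95 (0.0923). Without either 4OHT vehicle library it was not called (0.201 and 0.151). With MRTX1133 the deletion gave 0.96 (adjusted p = 0.335). After deletion MRTX1133 took Dmbt1 to 0.552 and 0.745 CPM, without a call (log2 change -1.70, adjusted p = 0.135). With only those 2 groups fitted it was called (0.00414). Over the 22 mouse libraries the genes most like Dmbt1 by centred Pearson r were Gkn2 (0.92), Lrrc8c (0.92) and Dock4 (0.91), and Dmbt1 and Gpr15lg had r = -0.09. Both are descriptions of libraries that share groups.

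Pigr encodes the polymeric immunoglobulin receptor, which carries IgA across the epithelium (chromosome 1, 130826684 to 130852249, plus strand). It was called in no comparison as fitted here. Its 3154 counts at 2 weeks were 15 and 1 with ethanol and 42 and 12 with 4OHT (log2 change 1.66, adjusted p = 0.296). At 48 hours with vehicle they were 42 and 11 with ethanol and 28 and 27 with 4OHT (log2 change 0.02, adjusted p = 0.981). MRTX1133 took it to 65 and 43 counts with Hnf4a and to 50 and 71 after deletion (log2 changes 0.92 and 0.99, adjusted p = 0.546 and 0.318). With only the 2 groups after deletion fitted, MRTX1133 was called (adjusted p = 0.024). In 1027B the counts were 12 and 5 with vehicle, 43 and 8 with trametinib and 24 and 22 with MRTX1133 (adjusted p = 0.24 and 0.438). PIGR had at most 6 counts in a human library.

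Chil1 encodes chitinase-like protein 1, which binds chitin without cutting it (chromosome 1, 134182176 to 134190181, plus strand). It too was called in no mouse comparison. At 2 weeks the libraries held 4.09 and 21.8 CPM with ethanol and 13.1 and 28.1 CPM with 4OHT, in overlapping ranges (log2 change 0.68, adjusted p = 0.589). Without ethanol replicate 2 the change was 2.33 (adjusted p = 0.00373). At 48 hours it went from 2.23 and 2.27 to 4.40 and 3.30 CPM with vehicle (log2 change 0.78, adjusted p = 0.0797). In 1027B it had 6 to 22 counts per library and in 3311 1 to 10. CHI3L1, the human counterpart, rose in H358 with trametinib from 0.207 and 0.269 to 1.74 and 1.30 CPM (log2 change 2.69 ± 0.38, adjusted p = 0.000772).

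The interaction of deletion and MRTX1133 in 3154 was called for no member. Beside Gpr15lg, given above, the differences between the log2 changes were 0.55 for Lyz1, 0.46 for Bpifb1, 0.23 for Lyz2, 0.07 for Pigr, -0.20 for Ltf, -0.22 for Chil1 and -0.74 for Dmbt1. The lowest adjusted p among these 7 was 0.716, for Bpifb1. Between MRTX1133 and trametinib in 1027B, where Dmbt1 is given above, the other 8 log2 differences were -2.02 for Bpifb1, -1.09 for Ltf, -0.90 for Lcn2, -0.77 for Lyz1, -0.59 for Chil1, -0.21 for Pigr, 0.07 for Gpr15lg and 0.14 for Lyz2. Their adjusted p ran from 0.395 for Bpifb1 to 0.975 for Gpr15lg. With 2 libraries a group such values do not show that the inhibitors act alike.

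In vehicle libraries the order of the members by CPM per kilobase of exon differed between cultures. In the 48-hour 3154 experiment Gpr15lg was followed by Bpifb1 at 16.6 ± 0.602 and Lyz1 at 16.4 ± 0.359, which do not differ beyond their spread, then by Chil1 at 0.802 ± 0.00913 and Pigr at 0.277 ± 0.229. In 1027B Lyz1 came first at 13.6 ± 2.34, then Dmbt1 at 3.93 ± 0.412, Gpr15lg at 1.37 ± 0.283 and Lyz2 at 0.543 ± 0.455. The other 5 members listed there were at 0.263 or below. In 3311 Gpr15lg was followed by Dmbt1 at 1.52 ± 0.591. All are SD over n = 2 libraries.

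Other secreted defence genes, a list of 28, moved in both directions with deletion. At 2 weeks 6 of 17 tested were higher and 3 lower, beside 9.81% of all genes called. At 48 hours 3 of 18 were higher and 5 lower with vehicle (31% of all genes), and 5 higher and 5 lower with MRTX1133 (27.7%). The complement gene C3 rose at 2 weeks from 1.21 ± 0.827 to 21.8 ± 8.21 CPM (adjusted p = 0.0144). Hp, the gene of haptoglobin, which binds free haemoglobin, rose at 48 hours from 2.46 ± 1.09 to 63.1 ± 14.5 CPM with vehicle (adjusted p = 0.000141). S100a8, a subunit of calprotectin, fell from 3.34 ± 2.58 to 0.162 ± 0.0393 CPM (adjusted p = 0.0111). In 1027B, where Dmbt1 fell with each inhibitor, 1 of 15 rose and 3 fell with MRTX1133, beside 6.27% of all genes called. With trametinib there 2 of 15 rose and 3 fell, beside 26.7% of all genes called. Among them Lrg1 went from 7.02 ± 3.42 to 0.269 ± 0.249 CPM (adjusted p = 0.0075) and Hp from 44.6 ± 12.9 to 316 ± 114 CPM (adjusted p = 0.0016). In 3311 2 of 7 rose and 3 fell (39% of all genes), with the chemokine gene Ccl20 going from 33.5 ± 2.84 to 3.53 ± 2.76 CPM (adjusted p = 0.00339). In H358 4 of 9 rose and 0 fell, beside 46.8% of all genes called (23.5% higher). All are SD over n = 2 libraries.

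Genes of the interleukin-17 and NF-κB pathway, a list of 19, were called in part. On deletion 3 of 18 rose and 2 fell at 2 weeks (9.81% of all genes called), 4 rose and 5 fell at 48 hours with vehicle (31%), and 6 rose and 2 fell with MRTX1133 (27.7%). Il1r1, an interleukin-1 receptor, rose at 2 weeks from 18.8 ± 4.39 to 50.8 ± 2.19 CPM (adjusted p = 0.0165) and at 48 hours from 10.7 ± 3.63 to 44.8 ± 2.38 CPM (adjusted p = 0.00154). With trametinib 6 rose and 1 fell of 18 in 1027B (26.7% of all genes called), 7 rose and 2 fell of 19 in 3311 (39%), and 9 rose and 2 fell of 19 in H358 (46.8%). Of all genes 13.5%, 19.4% and 23.5% were called higher in these comparisons and 13.2%, 19.6% and 23.2% lower. These counts describe the list, and no test of it was made. With MRTX1133 in 1027B 0 rose and 1 fell, Socs3, a feedback inhibitor of cytokine signalling, from 41.3 ± 6.6 to 19.9 ± 1.43 CPM (adjusted p = 0.0151). Of 8 receptors and binding partners 7 were tested on deletion, with 1 higher and 0 lower at 2 weeks (9.81% of all genes called) and 1 higher and 2 lower at 48 hours in each arm (31% and 27.7%). Mmp9, whose protein is bound by lipocalin 2, rose on deletion at 2 weeks from 0.112 ± 0.159 to 3.17 ± 1.51 CPM (adjusted p = 0.0363). Lrp2, an endocytic receptor of lipocalin 2, rose with trametinib in 3311 from 13.1 ± 3.72 to 250 ± 7.72 CPM (adjusted p = 0.000262). All are SD over n = 2 libraries.

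Markers of airway secretory cells moved beside these members. At 2 weeks the 3 club markers summed to 46.8 and 35.3 CPM with ethanol and 141 and 164 CPM with 4OHT, and Scgb1a1 and Cyp2f2 were called higher (adjusted p = 0.0165 and 0.00551). At 48 hours with vehicle the sums were 35.3 and 70.1 CPM with ethanol and 427 and 637 CPM with 4OHT. With MRTX1133 they were 145 and 196 CPM with ethanol and 949.9 and 965 CPM with 4OHT. Of 5 goblet and serous markers at 2 weeks, Spdef had 2 and 0 counts with ethanol and 52 and 46 with 4OHT (adjusted p = 0.0159), Muc5ac rose (adjusted p = 0.0208) and Foxa3 fell (adjusted p = 0.0274). In 1027B the club sums were 1.07 and 7.80 CPM with vehicle, 152 to 283 CPM with trametinib and 69.8 to 80.7 CPM with MRTX1133. Their part in the changes of the members was not tested. Of 10 myeloid markers 6 were listed in the 3154 tables, and their sums were 19.4 and 45.4 CPM with ethanol and 14.0 and 15.1 CPM with 4OHT at 2 weeks. At 48 hours with vehicle they were 7.03 and 10.99 CPM with ethanol and 12.2 and 15.1 CPM with 4OHT. With MRTX1133 they were 3.58 and 7.16 CPM with ethanol and 8.08 and 10.7 CPM with 4OHT. In both arms the sums of the deleted libraries lay above those of the matched ethanol libraries, the direction of Lyz2 and Ltf, with 0 of 4 markers called by edgeR. Ptprc, the pan-leukocyte gene, had 2 to 10 counts per library at 2 weeks, and Csf1r fell there from 25.6 ± 17.6 to 4.29 ± 1.19 CPM (SD, n = 2, adjusted p = 0.0416). The part of myeloid cells in the changes of Lyz2, Ltf and Lcn2 was not tested. In H358 the sum of 4 fibroblast markers was 32.4 to 36.7 CPM with vehicle and 111 to 143 CPM with trametinib beside LCN2, LYZ and CHI3L1. Of the alveolar type 2 markers there 3 of 3 tested were called higher, and of the goblet and serous markers 3 of 4 were called lower. The 5 epithelial markers summed to 5534 and 5337 CPM with vehicle and to 3601 and 3882 CPM with trametinib, with 3 called lower and 1 higher. Their part in those changes was not tested.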

How the data were processed

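Per the labels' protocols, poly(A) RNA was made into strand-specific libraries and read from both ends at 150 bases. Per the submitters' processing notes, cutadapt 3.5, STAR 2.7.6a and featureCounts 1.6.3 were used, with the builds hg38, mm10 and mm39 named without saying which table used which. What the authors deposited are whole-number counts by Ensembl identifier, not normalized, in 7 tables. Rows without a name or count were 0. Mouse coordinates and exon lengths are from GENCODE M21 (GRCm38), matched by Ensembl identifier, which found 96.84% of identifiers of the 48-hour 3154 table and over 99% of the others (99.89% or more). Per-kilobase levels assume that annotation.

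Fits were made within a table, using edgeR 4.0.16 under R 4.3.3 (filterByExpr, TMM, glmQLFit, glmQLFTest), without a replicate term, and Benjamini-Hochberg adjustment over all genes tested. The fit was tested on simulated counts for 1 comparison of each table. Where the spread was simulated gene by gene, the share of false calls was above the nominal level in most tables, so calls near the threshold are less sure than their adjusted p. With a spread set by the trend it was near that level. CPM are TMM-scaled. Ratios of pooled counts carry 95% exact binomial (Clopper-Pearson) intervals for counting error only, and 3 counts were taken as the floor of a library at 0. The members, gene lists and motifs were chosen with earlier results of these data known. The result of every tested member is given for each comparison, in the text or in the plot of fold changes. From each list, up to 3 called genes with the largest log2 change may be named, and the likeness search used log2 CPM with a prior count of 2. The labels state no pairing by replicate number for any culture. In 1027B replicate differences correlated over genes in all 3 pairs of groups (r = 0.24, 0.37 and 0.41), so its block results are given. That correlation comes from the same data and does not establish a pairing. Alternatives were DESeq2 1.42.0, RLE factors, no count filter, at least 10 counts in every library, the replicate block, only the 2 groups compared, and leaving out each library, where the lone library of an arm is assumed to vary like the others. One allele named in the labels of the mouse cultures is not reported here.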

Additional observations from a re-analysis of the deposited data

Results flagged for a closer look

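Listed here are members whose groups did not overlap in either of 2 comparisons. In these the treated libraries lay on opposite sides of their controls. None of these differences was tested, and the share of all genes doing the same was not computed. With 2 libraries against 2 an exact permutation p cannot go below 0.333, so separation alone is weak. How many such pairs there are is no result about the members. Lyz1 had a log2 change on Hnf4a deletion of 0.62 at 2 weeks and -0.38 at 48 hours with vehicle (edgeR adjusted p = 0.145 and 0.443). At 48 hours the groups were barely apart, with the higher 4OHT library at 20.36 CPM beside the lower ethanol library at 20.39 CPM, so the change there rests on 4OHT replicate 1 at 11.6 CPM. With MRTX1133, Lyz1 changed by -0.98 in 1027B (20 nM) and by 1.56 in 3154 with Hnf4a (3 nM; adjusted p = 0.207 and 0.134). After deletion the 3154 value was 2.11 (adjusted p = 0.025). Bpifb1 changed by -2.62 with MRTX1133 in 1027B and by 0.58 in 3154 after deletion (adjusted p = 0.184 and 0.0743). With the replicate number as a block in edgeR, Lyz1 and Bpifb1 were called lower with MRTX1133 in 1027B (adjusted p = 0.0148 and 0.0488).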

How the results depend on the processing

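Over 83 member results and 788 result and alternative pairs, 691 kept their direction and side of the threshold, 25 lost a call, 23 gained one and 49 reversed. Of 18 called results 11 stayed called in every alternative that tested them and 0 reversed. The causes were not tested. The number of members called was 2 rather than 5 at 2 weeks and 2 rather than 4 for deletion under MRTX1133 with at least 10 counts in every library, and 0 rather than 1 for each 1027B inhibitor, since that filter leaves low members untested. DESeq2 called 1 for MRTX1133 with Hnf4a, 4 for MRTX1133 after deletion, 1 for the interaction, 1 for MRTX1133 against trametinib and 0 in H358. With only the 2 groups fitted, 6 were called for MRTX1133 after deletion. Without 1 library the count ran from 0 to 1 for MRTX1133 after deletion, in 3311 and in H358.

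The replicate block in edgeR gave 8 members at 2 weeks, among them Pigr (adjusted p = 0.0494), 5 for deletion at 48 hours with vehicle, 3 for MRTX1133 in 1027B, 1 for MRTX1133 against trametinib, 1 with doxycycline (LCN2, adjusted p = 0.000265) and 1 with trametinib in H1651 (DMBT1, adjusted p = 1.47e-12). The pairing of libraries is not stated for any culture, and by the labels same-numbered libraries share a number only. Outside 1027B the r of replicate differences was 0.43 at 2 weeks, 0.13 in 3311, 0.32 with doxycycline, 0.62 in H1651 with trametinib and 0.32 in H358. It was -0.25 to 0.55 in the 48-hour experiment. In 1027B the block changed no call beyond those given in the text.

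Reversals came only from leaving out 1 library, and only in uncalled results. The log2 changes then ran, at 2 weeks, from -0.21 to 5.35 for Bpifb1 and -0.10 to 2.33 for Chil1. For deletion at 48 hours they ran from -0.65 to 1.28 for Pigr with vehicle, and with MRTX1133 from -0.15 to 0.39 for Pigr and -0.33 to 0.54 for Lyz1. For MRTX1133 with Hnf4a they were -1.70 to 0.65 for Dmbt1, -3.24 to 0.84 for Ltf and -0.023 to 0.69 for Chil1, and after deletion -0.91 to 0.30 for Ltf and -0.014 to 0.40 for Chil1. With trametinib in 1027B they were -3.37 to 1.44 for Lcn2, -0.20 to 2.14 for Pigr, -2.72 to 0.22 for Bpifb1, -0.38 to 0.0037 for Lyz1 and -0.33 to 1.91 for Ltf. With MRTX1133 there they were -2.36 to 0.33 for Lcn2 and -1.07 to 0.81 for Ltf. For the interaction they were -2.35 to 0.0061 for Dmbt1, -1.19 to 0.73 for Pigr, -1.45 to 1.69 for Lyz2, -1.13 to 2.96 for Ltf and -0.52 to 0.19 for Chil1. For MRTX1133 against trametinib they were -2.86 to 2.96 for Lcn2, -0.95 to 1.39 for Pigr, -2.83 to 0.11 for Bpifb1 and -0.53 to 1.10 for Gpr15lg. They were -0.54 to 0.28 for Gpr15lg in 3311, -0.63 to 0.36 for DMBT1 with doxycycline, and in H1651 with trametinib -2.97 to 0.49 for DMBT1 and -1.43 to 1.01 for LCN2. Ltf, Lcn2, Bpifa1, Lyz2 and Pigr rest on few counts in at least 1 group, as do Dmbt1, Bpifb1 and Gpr15lg in some.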
